A study of Mus musculus with 6 samples.

Results

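Among CD8 T cells sorted from MB49 tumours, 989 cells of 26698 carried messages for the transcription factor TCF1 (gene Tcf7) and the inhibitory receptor PD-1 (Pdcd1) but none for the inhibitory receptor TIM-3 (Havcr2). They were chosen by counts of unique molecular identifiers (UMIs, one per captured message): at least 1 for Tcf7, at least 1 for Pdcd1 and 0 for Havcr2. Cells of the authors' clusters 2, 3, 5, 6 and 10 were left out, which kept 15625 cells in 6 clusters. These are called Tcf7+ Pdcd1+ Havcr2- cells below, and a minus sign means that no UMI was counted. They were set against the 6845 cells of the same clusters with Pdcd1 and Havcr2 but no Tcf7 UMI, called Tcf7- Havcr2+ cells. The 3 genes that chose the cells give no result here.

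T cells that meet their antigen for a long time, in a tumour or a chronic infection, lose function step by step, a state named exhaustion. Within the exhausted pool, cells that keep TCF1 divide, renew themselves and give rise to cells that carry TIM-3, which have strong killing machinery but little capacity to renew. The TCF1+ cells are called progenitor exhausted, carry the surface receptor Ly108 (Slamf6), and are known as the cells that expand when PD-1 is blocked.

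The tumours grew under the skin of wild-type C57BL/6 mice of both sexes, inoculated at 6 weeks of age and described elsewhere in the labels as 6 to 8 weeks old. MB49 is a mouse urothelial carcinoma line. On day 10, live CD3+ CD8+ CD4- cells were sorted and sequenced with a droplet kit that reads the 3' end of each message. The data hold 3 male libraries (numbers 1, 3 and 4) and 3 female libraries (2, 5 and 6), and no treatment separates them beyond sex.

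Every library held Tcf7+ Pdcd1+ Havcr2- cells: 341, 123 and 259 in the males and 80, 104 and 82 in the females. Their summed UMIs ran from 761062 to 2987242 per library. The Y-linked genes and Xist, the RNA of X inactivation, matched the sex of all 6 libraries. Of 7 tested genes of the X-linked list, 2 were called lower in males. Of the cells, 446 had exactly 1 Tcf7 UMI and 543 had 2 or more, and 452 had exactly 1 Pdcd1 UMI. Just outside the rule stood 229 cells with Tcf7, Pdcd1 and exactly 1 Havcr2 UMI. A count of 0 does not show that a cell lacks a message, and depth differed: the median was 6955 UMIs per cell against 10226 in Tcf7- Havcr2+ cells. For thinning, cells under 4000 UMIs were left out, 177 of the 989 among them. The 13778 cells left were thinned to 4000 UMIs and chosen anew by the rule. Of these, 516 met it, 439 of them from the 812 original cells that could be thinned. In cluster 8 only 5.37% of all cells had a Tcf7 UMI at a median of 13987 UMIs, against 44.3% in cluster 1 and 86.6% in cluster 7, so these shares were not alike across clusters. Only 8 of the 989 cells carried a barcode that also occurred in another library.

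Cluster 1 held 445 of the cells (45.0%), cluster 7 held 184, cluster 0 held 152, cluster 9 held 125, cluster 4 held 79 and cluster 8 held 4. As a share of all Pdcd1+ cells of a cluster they made up 78.6% of cluster 7, 29.0% of cluster 1, 25.1% of cluster 9, 3.97% of cluster 4, 3.52% of cluster 0 and 0.256% of cluster 8. They were therefore spread over several clusters and no single cluster stood for them. If Tcf7 and Havcr2 detection were independent among the Pdcd1+ cells of each library and cluster, 807 such cells would be counted. The observed number was 1.23 times that. The ratio was 1.86 in cluster 0, 1.43 in cluster 9 and 1.00 in cluster 7. Median depth went in different directions by cluster: in cluster 0 the cells had 12019 UMIs against 9491 in Tcf7- Havcr2+ cells, and in cluster 1 they had 5517 against 7517.

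The share of Pdcd1+ cells that met the rule was 18.9%, 11.2% and 9.44% in the male libraries and 6.17%, 4.23% and 11.1% in the female libraries. Exact binomial intervals, which cover counting error alone, ran from 17.1% to 20.8% for the highest share and from 3.47% to 5.10% for the lowest. The sexes overlapped, since female library 6 lay above male library 4. The means were 13.2% ± 5.05 (SD, n = 3) in males and 7.17% ± 3.55 (SD, n = 3) in females, a difference of 6.01 percentage points (exact two-sided permutation test, p = 0.2, where the smallest p that 3 against 3 allows is 0.10). In cluster 9 the male shares, 26.3% to 44.7%, all lay above the female shares, 7.48% to 19.1% (exact permutation p = 0.10, 0.3 adjusted over the 6 clusters). In cluster 7 the means were 80.5% and 80.2%. With every cluster given the same weight in each library, the means were 27.5% in males and 20.7% in females (exact permutation p = 0.2). Pdcd1+ cells were 57.3% ± 4.80 of the kept cells in males and 74.8% ± 7.61 in females (SD, n = 3 each; exact permutation p = 0.10), so the denominator of the share differed too.

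**Figure D1:**
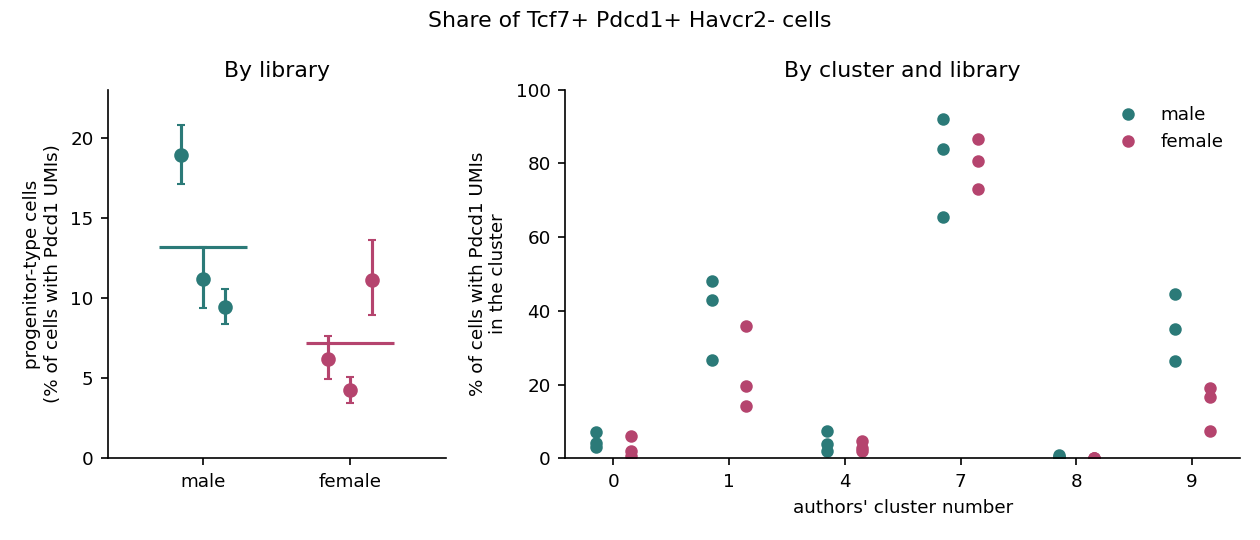
Share of Tcf7+ Pdcd1+ Havcr2- cells among cells with a Pdcd1 UMI, as percent on the vertical axes. Left, each point is 1 library with its exact 95% binomial interval and lines are the means of 3 libraries (13.2% in males, 7.17% in females); right, each point is 1 library within an authors' cluster, where cluster 7 stands near 80% in both sexes and cluster 8 near 0.

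Gene levels were compared between sums of equal numbers of cells of both kinds, drawn within each library and cluster, 617 cells per kind in all. Because cluster 7 held only 3 Tcf7- Havcr2+ cells, 276 of the 617 came from cluster 1, 152 from cluster 0, 103 from cluster 9 and 79 from cluster 4, and the 184 cells of cluster 7 hardly enter. The matched sums held 0.737 to 1.04 times the UMIs of the Tcf7- Havcr2+ sums. Levels are given as CPM, a gene's part of the summed UMIs of a library scaled to one common total. In the tests, that total held only the genes tested and was adjusted by TMM, edgeR's scaling between sums. Summed markers, and levels by cluster, by number of Tcf7 UMIs and over all cells of each kind, were scaled without TMM. These scales differ. Folds are log2 from edgeR's quasi-likelihood test with the library as a block and Benjamini-Hochberg adjustment over all genes. Of 6274 genes tested, 1206 passed at an adjusted p under 0.05 (19.2%), 576 of them higher (9.18%) and 630 lower (10%) in Tcf7+ Pdcd1+ Havcr2- cells, with a median over all genes near 0. The count fell to 508 of 2721 genes when cells were thinned to 4000 UMIs, a setting that tests fewer genes and leaves out shallower cells.

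The marker that the rule did not use was higher. Slamf6, which encodes the receptor Ly108 (chr1:171917515-171953170 in GENCODE M21, build GRCm38), measured 155 to 230 CPM in the 6 sums of Tcf7+ Pdcd1+ Havcr2- cells (median 166) and 39.8 to 68.5 CPM in the Tcf7- Havcr2+ sums (median 57.0). The groups did not overlap, and the log2 difference was 1.63 (SE 0.11, edgeR adjusted p = 6.11e-17, higher in 6 of 6 libraries). In cells thinned to 4000 UMIs, 43.4% of the first kind and 15.3% of the second had a Slamf6 UMI, against 31.8% of Tcf7+ Pdcd1+ Havcr2+ cells and 34.8% of Tcf7+ Havcr2- cells with no Pdcd1 UMI. Slamf6 therefore set the cells apart from Tcf7- Havcr2+ cells, and it also passed against Tcf7+ Pdcd1+ Havcr2+ cells, as given below. It did not pass against Tcf7+ Havcr2- cells without Pdcd1 (log2 difference 0.09). Slamf6 was thus not shown to tell progenitor exhausted cells from Tcf7+ cells without Pdcd1. Further genes of the stem and progenitor list moved with it: 19 of 29 tested members rose and 1 fell, with a median log2 difference of 0.61. Id3, an inhibitor of E-protein transcription factors that marks memory and progenitor cells, had 17.2 to 31.5 CPM against 0 to 6.23 CPM, a log2 difference of 3.49 (SE 0.35). Myb, a transcription factor needed for stem-like T cells, rose by 1.84 (SE 0.20), and Bach2, a repressor of effector genes, by 1.36 (SE 0.13). Cxcr3, Crtam and Il7r, the survival receptor for interleukin 7, rose by 1.05, 0.87 and 0.61. The member that fell was Icos, a costimulatory receptor, at -0.95 (SE 0.10). Xcl1, a chemokine gene of the list, was at 0.48 (SE 0.56, edgeR adjusted p = 0.653) and turned to -1.09 after thinning to 4000 UMIs, where it passed (adjusted p = 1.09e-08, edgeR).

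Genes of naive and central memory T cells rose as well: 10 of 14 tested members rose and none fell, with a median of 0.86. This list shares genes with the stem and progenitor list, Ccr7 and Nsg2 among them, so the counts overlap. Dapl1 (chr2:59484653-59505020), a gene of unstimulated and memory T cells, had the largest fold of any gene named by the rule. It ran from 36.5 to 184 CPM (median 76.8) in Tcf7+ Pdcd1+ Havcr2- cells and from 0 to 4.70 CPM (median 1.36) in Tcf7- Havcr2+ cells, a log2 difference of 5.37 (SE 0.22). The 3 male libraries held the 3 highest values. Ccr7, the receptor that guides T cells into lymph nodes, had 98.2 to 330.2 CPM against 6.23 to 43.5 CPM and rose by 3.45 (SE 0.16). S1pr1, which guides cells out of tissue, rose by 1.30, and the transcription factors Klf3 and Lef1 by 1.47 and 0.77. The rise of these genes stood beside that of Slamf6 in the same sums, and the part in it of naive-like cells that carry a Pdcd1 UMI was not tested.

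The other risers of the top 15 had mixed roles. Aff3, a nuclear protein, rose by 3.27 (SE 0.32) and Nsg2 by 3.06 (SE 0.26). Tnfsf8 (CD30 ligand) rose by 2.73 (SE 0.38) and Tnfsf11 (RANKL) by 1.63 (SE 0.22), both ligands of the tumour necrosis factor family. Tnfrsf26, a receptor of that family, rose by 2.08, the phosphodiesterase gene Pde2a by 2.25, the inhibitor of PI3 kinase Pik3ip1 by 1.67 and the adenosine kinase gene Adk by 1.64. Cxcl10, an interferon-induced chemokine, rose by 1.95 (SE 0.46, edgeR adjusted p = 0.037), with 136 CPM in library 3 and 32.7 to 59.2 CPM in the other five. Without library 1, 2, 4 or 5 its adjusted p in edgeR was 0.106, 0.0898, 0.0764 or 0.0676, and it also missed the threshold with another draw of matched cells.

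Killing and effector genes were lower without exception among those that passed: 22 of 24 tested members fell, none rose, and the median was -0.87. Gzmb (chr14:56258838-56262260), which encodes granzyme B, measured 692 to 1310 CPM (median 897) against 3317 to 5719 CPM (median 3963). The groups stood far apart and the log2 difference was -2.16 (SE 0.07, edgeR adjusted p = 1.84e-26, lower in 6 of 6 libraries). Gzmb was not absent: 68.6% of the thinned Tcf7+ Pdcd1+ Havcr2- cells had a UMI for it, against 94.0% of Tcf7- Havcr2+ cells. Prf1, the pore-forming protein perforin, had 22.8 to 77.4 CPM against 179 to 228 CPM and fell by 2.31 on the log2 scale (SE 0.16). Gzmc fell by 2.47 and Nkg7, a protein of cytotoxic granules, fell by 1.01. Interferon gamma (Ifng) fell by 1.75 (SE 0.34, edgeR adjusted p = 0.0207), with 76.0 to 338 CPM against 316 to 1823 CPM, ranges that overlap. Without library 4, 5 or 6 the adjusted p of Ifng in edgeR was 0.0608, 0.0584 or 0.0620, and it was 0.0821 after thinning. The chemokine gene Ccl3 fell by 2.08 (SE 0.40), with an edgeR adjusted p of 0.0647 without library 2 and 0.0510 without library 4, and it did not pass after thinning. The chemokine gene Ccl4 fell by 1.80 (SE 0.15), and Csf1, a growth factor of macrophages, fell by 2.06 (SE 0.13). The members that did not pass were Tnf (-0.27) and Ctsw (-0.13).

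Of 24 tested genes linked to terminal exhaustion, 19 fell and none rose, with a median of -0.94. This list shares Gzmb with the effector list. Entpd1 (chr19:40612366-40741602), which encodes the ectoenzyme CD39, had 6.64 to 10.9 CPM against 49.7 to 76.8 CPM and fell by 2.69 on the log2 scale (SE 0.18). Lag3, another inhibitory receptor, averaged 195 CPM against 516 CPM and fell by 1.37 (SE 0.09). Prdm1, which encodes the effector regulator Blimp-1, fell by 1.70, Id2 fell by 1.26 and the costimulatory receptor Tnfrsf9 (4-1BB) fell by 1.34. Cxcr6, a chemokine receptor of tissue-held T cells, fell by 1.72 (SE 0.10). Tox, a driver of the exhaustion programme, did not differ beyond its error: 56.3 CPM against 52.3 CPM, a log2 difference of 0.02 (SE 0.15, edgeR adjusted p = 0.96). Other genes among the 15 with the largest falls were Neb (-2.91), the decoy receptor Il1r2 (-2.61), Sv2c (-2.55), the metallothionein Mt1 (-1.95), Adam8 (-1.73) and the transcription factor Maf (-1.70).

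**Figure D2:**
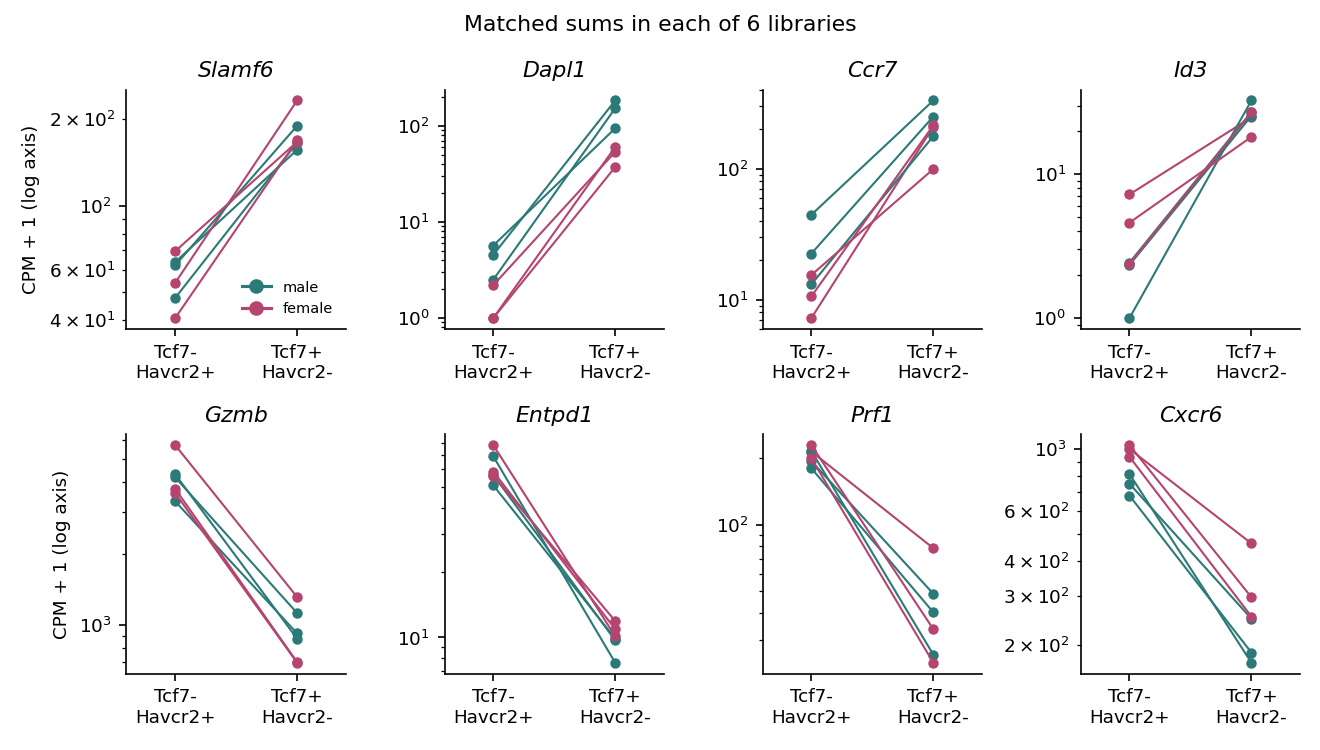
CPM plus 1 on log axes for 8 genes in matched sums of Tcf7- Havcr2+ cells and Tcf7+ Pdcd1+ Havcr2- cells, each line being 1 of 6 libraries. Slamf6, Dapl1, Ccr7 and Id3 rise in every library and Gzmb, Entpd1, Prf1 and Cxcr6 fall in every library. The same sign in all 6 libraries was a condition for genes named by largest fold, to which all 8 belong.

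Lists beyond the exhaustion programme moved as well. Of 34 ribosomal protein genes 31 rose and none fell, by small amounts (median 0.27, Rplp1 0.52). Of 19 glycolysis and hypoxia genes 14 fell and none rose (median -0.52), among them the glucose transporter Slc2a3 (-1.07), Bnip3 (-1.06) and Gapdh (-0.64). Of 20 genes linked to T cell receptor signals, in a list built around NR4A and EGR factors, 11 fell and 1 rose. Tnfrsf9, Il2ra (-1.18) and Nr4a3 (-0.65) were lower. The one that rose was Rel (0.32), which was at -0.052 after thinning and had an edgeR adjusted p of 0.0644, 0.0658 or 0.0690 without library 1, 5 or 6. Among 8 tested AP-1 genes Fos (0.90), Fosl2 (0.79), Fosb (0.53), Jun (0.50) and Junb (0.20) rose, while Maf, Jund (-0.34) and Batf (-0.29) fell. Junb lost its call without library 1, 3, 4 or 6 (adjusted p from 0.0677 to 0.191, edgeR), and so did Batf (0.0816 to 0.209). Fos and Jun did not pass after thinning to 4000 UMIs. Of 17 heat shock and immediate early genes 7 rose, 4 of which are these AP-1 genes, and of 13 mitochondrially encoded genes 5 rose. The median mitochondrial share was 4.59% in Tcf7+ Pdcd1+ Havcr2- cells and 3.85% in Tcf7- Havcr2+ cells over all clusters, and the part of cell handling in these rises was not tested. Interferon-stimulated genes were split, with 6 of 25 higher (Ifit3 1.07, Rtp4 0.93) and 4 lower (Ly6a -1.01, Isg20 -0.83), and Ifit3 had an edgeR adjusted p of 0.0847 without library 4. Proliferation genes barely differed, with Hmgb2 (0.27) higher and Mcm6 (-0.41, adjusted p = 0.0612 in edgeR without library 1) lower of 10 tested, in a population from which the authors' clusters 3 and 5 had been left out.

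Markers of T cell identity were present in both kinds, but 5 of 6 tested were lower in Tcf7+ Pdcd1+ Havcr2- cells, among them Cd8a (-0.56) and Cd3e (-0.38). Their summed level ran from 3534 to 4502 CPM against 4677 to 5981 CPM. Markers of other cell types, most of which the gate for CD3+ CD8+ CD4- cells is meant to remove, were also summed. The 13 natural killer and innate markers found in the data summed to 255 to 459 CPM against 299 to 440 CPM, the 15 myeloid markers to 126 to 149 CPM against 137 to 208 CPM, the 6 CD4 and regulatory markers to 49.3 to 76.2 CPM against 107 to 163 CPM, and the 3 gamma delta markers to at most 2.16 CPM against 13.5 CPM. The 3 B cell markers found summed to 11.0 to 73.5 CPM against 4.50 to 38.3 CPM, and the 9 tumour and stroma markers to 13.0 to 41.0 CPM against 12.4 to 21.9 CPM. Fcer1g, a signalling chain of innate cells, was at 1.55 and did not pass. It averaged 119 CPM in Tcf7+ Pdcd1+ Havcr2- cells of cluster 7 and 12.1 CPM in those of cluster 1. With both kinds compared inside cluster 0 alone, 2 of 4 tested natural killer and innate markers passed as higher and 1 as lower (median 0.90). Inside cluster 1, 2 of 2 tested passed as lower (median -1.10). The 1 tumour and stroma marker tested in cluster 0 passed as higher (2.01), and none was tested in cluster 1. The part of other cells in these values was not tested.

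The promoter windows of Slamf6, the riser named first above, and of Cxcr6, a faller, are shown because TCF1 binds a short sequence whose core is CTTTGA. They are 300 bases long, from 250 before to 50 after the start (RefSeq, build GRCm38.p6), 5′ to 3′ in gene direction, with any CTTTGA or its reverse complement in capitals. The Slamf6 window is chr1:171917212-171917511, plus strand, and the Cxcr6 window is chr9:123806227-123806526, plus strand.
Slamf6: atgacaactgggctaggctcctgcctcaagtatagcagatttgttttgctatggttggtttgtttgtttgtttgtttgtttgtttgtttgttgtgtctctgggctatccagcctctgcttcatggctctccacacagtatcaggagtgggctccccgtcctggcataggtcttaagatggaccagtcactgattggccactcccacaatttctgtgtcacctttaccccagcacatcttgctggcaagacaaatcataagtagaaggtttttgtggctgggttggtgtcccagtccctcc
Cxcr6: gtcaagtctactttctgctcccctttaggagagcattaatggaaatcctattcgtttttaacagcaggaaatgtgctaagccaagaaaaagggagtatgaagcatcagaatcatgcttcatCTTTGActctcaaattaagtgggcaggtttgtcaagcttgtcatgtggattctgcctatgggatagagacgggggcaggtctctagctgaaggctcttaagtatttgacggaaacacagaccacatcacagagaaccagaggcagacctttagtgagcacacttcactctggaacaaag
The motif was searched on both strands, and 16.0% of all 32851 windows held it. None of 18 windows of 12 of the 15 risers held it, and 3 of 13 windows of 12 of the 15 fallers did, those of Sv2c, Csf1 and Cxcr6. These are letter matches in one window near each start, and a window without one says nothing about TCF1 elsewhere at the gene.

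The difference was also measured inside the 2 clusters with enough cells of both kinds. In cluster 0 (5 libraries, 144 against 2418 cells) 1020 of 7862 genes passed (13%; 6.07% higher, 6.91% lower), and in cluster 1 (6 libraries, 445 against 455 cells) 744 of 4537 passed (16.4%; 7.85% higher, 8.55% lower). Slamf6 rose by 1.60 (SE 0.12) in cluster 0 and 1.49 (SE 0.15) in cluster 1, and Ccr7 by 2.80 (SE 0.27) and 3.41 (SE 0.27). Gzmb was at -2.85 (SE 0.41) and -1.95 (SE 0.09), Entpd1 at -3.22 (SE 0.28) and -1.78 (SE 0.25), and Csf1 at -1.37 (SE 0.15) and -3.19 (SE 0.27), all of which passed. Of the stem and progenitor genes, 14 of 30 rose and 1 fell in cluster 0, and 10 of 23 rose and 2 fell in cluster 1. Of the terminal exhaustion genes, 15 of 26 fell and 2 rose in cluster 0, and 17 of 22 fell and none rose in cluster 1. Whether the clusters differ in these changes was not tested.

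Cells of the rule also varied among themselves, which is given as a description. Slamf6 was at 198 CPM ± 21.7 in cluster 1, 155 CPM ± 61.3 in cluster 0 and 125 CPM ± 43.0 in cluster 7 (SD, n = 6 libraries). Ccr7 was at 320.5 CPM ± 98.2 in cluster 0 and 193 CPM ± 58.9 in cluster 7, against 93.7 CPM ± 28.7 in cluster 1. Lag3 was at 349.6 CPM ± 96.1 in cluster 0, 75.2 CPM ± 19.5 in cluster 1 and 38.1 CPM ± 42.7 in cluster 7. Gzmb was at 427 CPM ± 169 in cluster 0 and 988 CPM ± 217 in cluster 1. Those with 2 or more Tcf7 UMIs averaged 97.8 CPM ± 37.5 of Dapl1 and 4.92 CPM ± 2.40 of Entpd1, against 43.6 CPM ± 27.9 and 11.9 CPM ± 5.15 in those with exactly 1 (SD, n = 6 libraries). Tcf7 had chosen the cells, and these groups were not matched on cluster or depth. Of the 184 cells of cluster 7, 138 had 2 or more Tcf7 UMIs, and the part of cluster and depth was not tested.

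To separate what goes with Tcf7 from what goes with Havcr2, the cells were set against Pdcd1+ cells that differ in 1 of the 2 genes. Against Tcf7- Havcr2- cells (688 matched cells per kind), which differ in Tcf7 alone, 271 of 5883 genes passed (4.61%; 2.72% higher, 1.89% lower), and 175 passed without library 1. Slamf6 rose by 1.05 (SE 0.12), Dapl1 by 2.83 (SE 0.20) and Id3 by 2.81 (SE 0.36). Gzmb fell by 1.02 (SE 0.05), Maf fell by 1.37 (SE 0.18) and Nkg7 fell by 0.52 (SE 0.05). Maf did not pass with another draw of matched cells (edgeR adjusted p = 0.0662) or without cluster 7. Here 13 of 29 stem and progenitor genes and 33 of 34 ribosomal genes rose, and 15 of 21 effector genes fell. The 1 tumour and stroma marker tested was higher (0.82). The 1 tested did not pass against Tcf7+ Havcr2+ cells (0.35) or against Tcf7+ Havcr2- cells without Pdcd1 (-0.21). Median depth over all cells was 6955 UMIs per cell against 6178, and the matched sums of Tcf7+ Pdcd1+ Havcr2- cells held 1.12 to 1.52 times the UMIs in the 6 libraries. The part of depth in this comparison was not tested beyond the 166 genes that passed after thinning to 4000 UMIs.

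Against Tcf7+ Havcr2+ cells (499 matched cells per kind), which differ in Havcr2 alone, 430 of 6379 genes passed (6.74%; 2.81% higher, 3.93% lower), but 258 without library 1 and 228 without library 4. Here 13 of 25 terminal exhaustion genes fell and 1 rose, and 6 of 29 stem and progenitor genes rose and 1 fell. Prf1 fell by 1.83 (SE 0.12), Gzmb fell by 1.59 (SE 0.07), Il1r2 fell by 2.46 (SE 0.27) and Sv2c fell by 2.26 (SE 0.22). Ifng fell by 1.78 (SE 0.25), with an edgeR adjusted p of 0.0654 without library 1 and 0.0588 without library 2, and 0.606 after thinning. Slamf6 rose by 0.82 (SE 0.10) and Ccr7 by 1.44 (SE 0.16), while Id3 was at 0.54 (SE 0.20), which did not pass (it did without library 6, at 0.66 with an edgeR adjusted p of 0.0386). Cells with a Tcf7 and a Havcr2 UMI had a median of 13867 UMIs against 6955, the matched sums of Tcf7+ Pdcd1+ Havcr2- cells held 0.549 to 0.813 times their UMIs, and only 36 of 1629 genes passed after thinning to 4000 UMIs. Both comparisons share the Tcf7+ Pdcd1+ Havcr2- cells, so their values stand side by side and were not tested against each other.

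**Figure D3:**
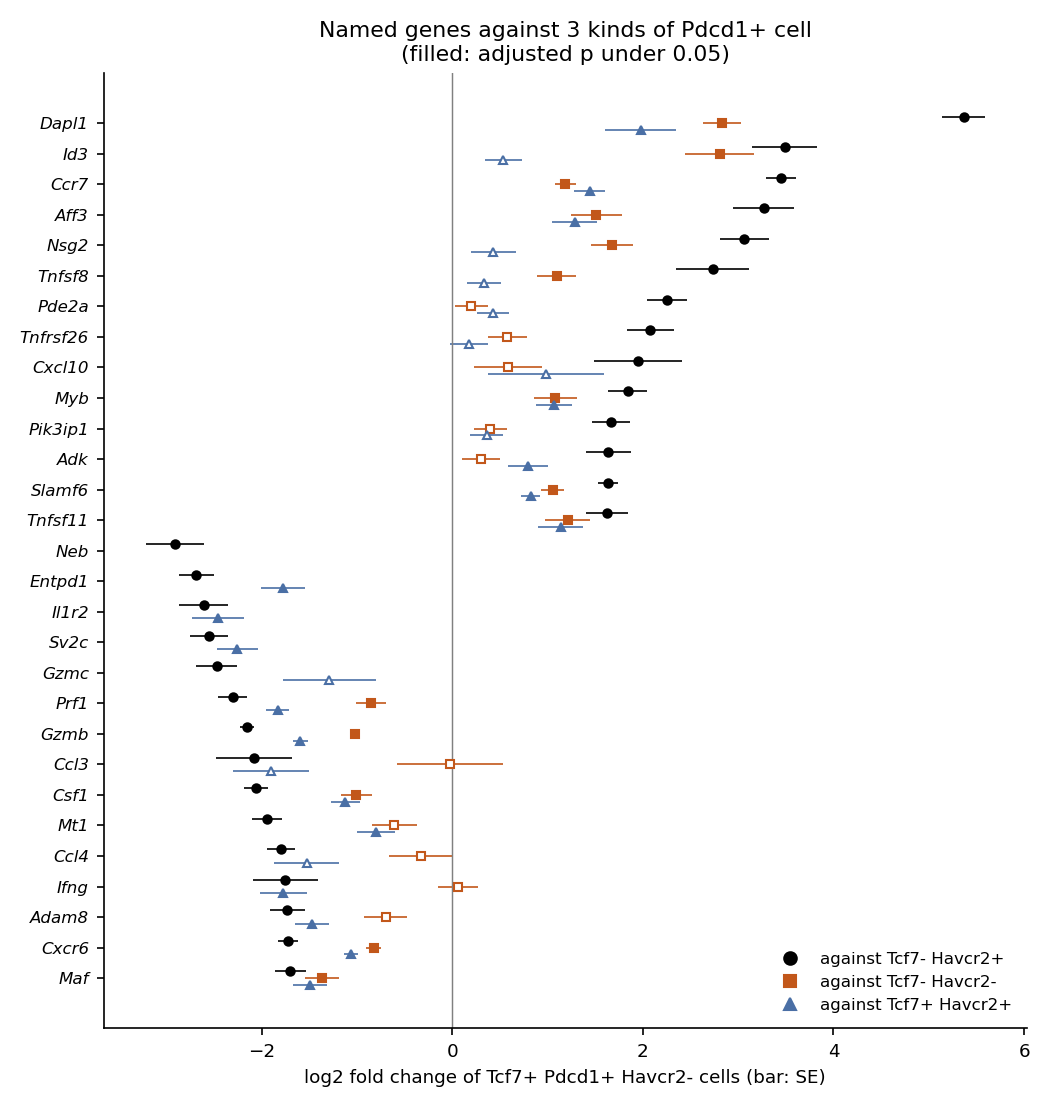
Log2 fold change with its standard error for 29 genes with large changes, in Tcf7+ Pdcd1+ Havcr2- cells against Tcf7- Havcr2+ cells (circles), Tcf7- Havcr2- cells (squares) and Tcf7+ Havcr2+ cells (triangles), all with Pdcd1. Filled symbols passed an adjusted p under 0.05, and a missing symbol means that the gene was too low to test; Slamf6 passed in all 3 comparisons and Entpd1 in the 2 where it could be tested.

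A comparison added after the data were seen set the cells against Tcf7+ Havcr2- cells with no Pdcd1 UMI, which differ in Pdcd1 alone (818 matched cells per kind, 184 of them from cluster 7). Of 6275 genes 308 passed (4.91%), 127 higher (2.02%) and 181 lower (2.88%). Lag3 rose by 1.17 (SE 0.12), from 39.5 to 87.3 CPM, and Tox by 0.60 (SE 0.16, edgeR adjusted p from 0.0507 to 0.0972 without library 2, 3, 5 or 6), Ctla4 by 0.63 (SE 0.10) and Nrgn by 1.59 (SE 0.21). In all, 8 of 22 terminal exhaustion genes rose and none fell. Of the naive and central memory genes 8 of 14 fell, among them Klf2 (-0.47) and Lef1 (-0.45), and Cd27 rose (0.30, edgeR adjusted p = 0.0819 with another draw). Slamf6 (0.09), Dapl1 (-0.19) and Gzmb (0.03) did not pass. Of 10 proliferation genes 5 rose, Mki67 by 1.05 (SE 0.23) and Mcm5 by 1.04 (SE 0.18), and 33 of 34 ribosomal genes fell (median -0.21). Median depth over all cells was 6955 UMIs per cell against 6438, and the matched sums held 1.14 to 1.20 times the UMIs.

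**Figure D4:**
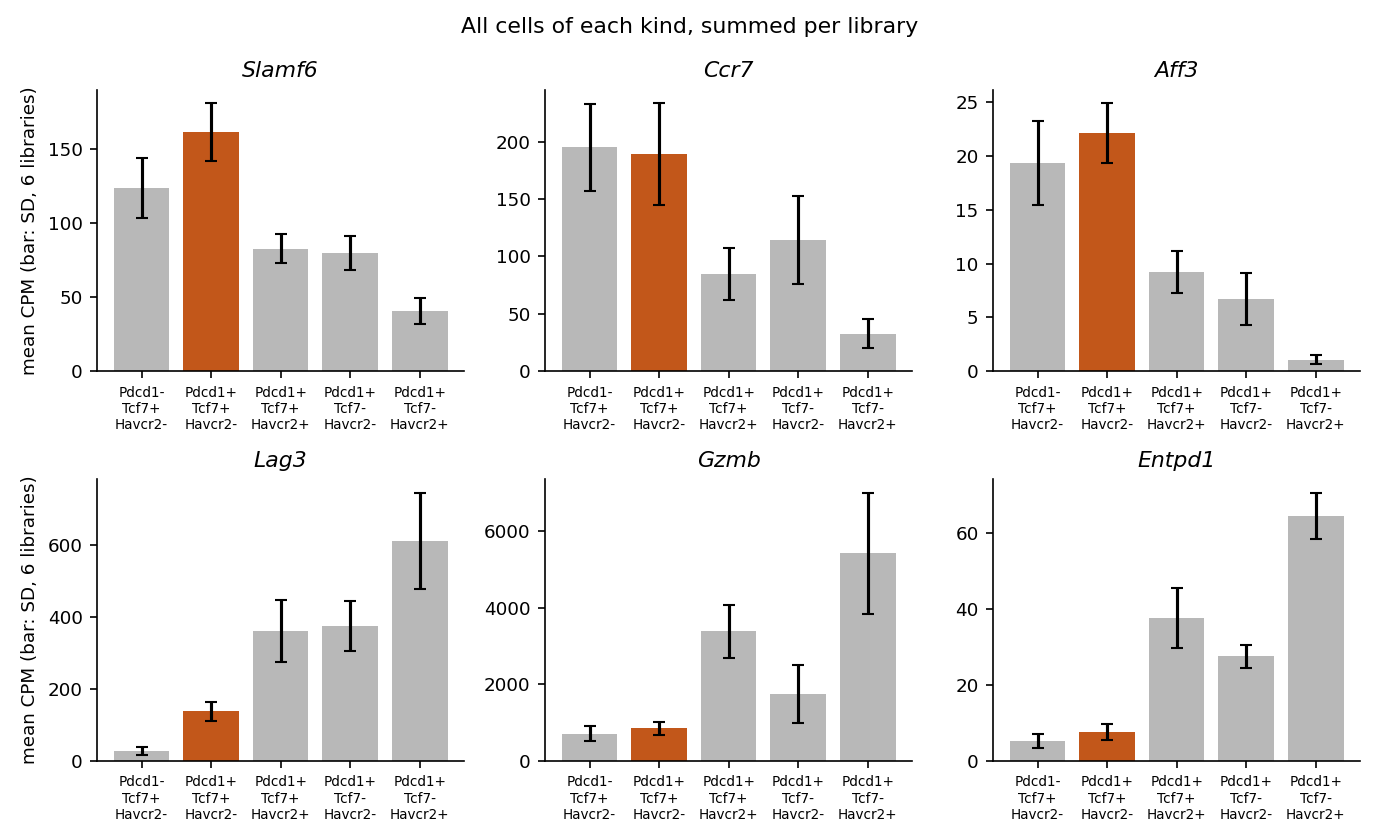
Mean CPM with SD over 6 libraries for 6 genes in all cells of 5 kinds, summed per library without matching on cluster, the Tcf7+ Pdcd1+ Havcr2- cells in orange. Slamf6 stands at 161 CPM in them against 40.6 CPM in Tcf7- Havcr2+ cells, and Lag3 at 138 CPM lies between 27.2 CPM in Pdcd1- cells and 612 CPM in Tcf7- Havcr2+ cells.

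The design of the series sets males against females. Over all 989 cells, 11 of 7330 genes differed between the sexes (0.15%), 5 higher (0.0682%) and 6 lower (0.0819%) in males. Among the 11, 6 belong to the lists of Y-linked and X-linked genes. Dapl1 was higher in males, with 129, 112 and 84.7 CPM in the male libraries and 58.4, 67.0 and 37.0 CPM in the female libraries, a log2 difference of 1.02 (SE 0.20, edgeR adjusted p = 0.0321). Its adjusted p in edgeR was 0.149, 0.0980, 0.0606 or 0.104 without library 1, 2, 3 or 6, and 0.728 after thinning to 4000 UMIs, at a log2 difference of 0.49. S100a4, a calcium-binding protein of effector and memory cells, was lower in males, at 370.5 CPM ± 76.8 against 731 CPM ± 100.1 (SD, n = 3 each), a log2 difference of -0.99 (SE 0.14, edgeR adjusted p = 0.000605). Ccr2, a chemokine receptor, was at 104 CPM ± 27.9 in males and 225 CPM ± 40.0 in females (log2 difference -1.12, SE 0.17), the granzyme gene Gzmm at 14.3 CPM ± 1.47 and 34.2 CPM ± 3.01 (-1.26, SE 0.24), and the lectin gene Lgals3 at 255 CPM ± 18.7 and 398 CPM ± 73.7 (-0.64, SE 0.13). These 5 genes were named only among genes in which no library of one sex overlapped the other. That separation was a condition of the choice and not a result. Ccr2 lost its call in edgeR without library 5 or 6 (adjusted p = 0.0744 and 0.135), Gzmm without library 1 or 5 (0.116 and 0.0566, and 0.0588 by DESeq2) and Lgals3 without any of libraries 1 to 5 (0.0528 to 0.337), while S100a4 passed without each library in turn. Bcl2 (0.66), Cebpb (0.96) and Socs3 (0.65) were higher in males and Klrc1 (-0.52), S100a6 (-0.53) and Runx2 (-0.53) lower without passing, though each of them except Runx2 passed without 1 or 2 of the libraries. Slamf6 (-0.12, SE 0.13), Ccr7 (0.26, SE 0.22) and Id3 (0.36, SE 0.30) did not pass. The number called was 20 without library 2 and 24 without library 4, and ran from 8 to 24 as libraries were left out.

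**Figure D5:**
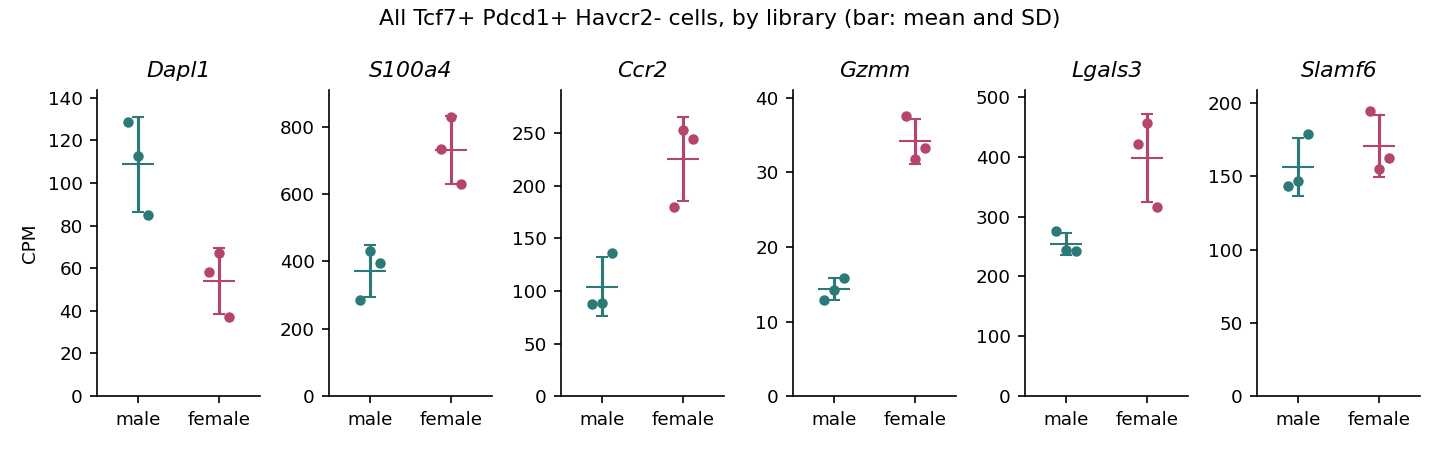
CPM of 6 genes in all Tcf7+ Pdcd1+ Havcr2- cells of each library, by sex, with the mean and SD of 3 libraries. Dapl1 is higher in each male library, S100a4, Ccr2, Gzmm and Lgals3 are lower in each male library, and Slamf6 overlaps. All but Slamf6 were named only among genes whose libraries did not overlap between the sexes.

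Whether the difference between Tcf7+ Pdcd1+ Havcr2- and Tcf7- Havcr2+ cells itself differed by sex was tested as an interaction, and 2 of 6274 genes passed (0.0319%). Bcl2, which protects cells from death, was higher in Tcf7+ Pdcd1+ Havcr2- cells by 0.95 in males and 0.06 in females (interaction 0.90, SE 0.16, edgeR adjusted p = 0.00226). Ifng fell by 1.03 in males and fell by 2.53 in females on the log2 scale (interaction 1.52, SE 0.16, edgeR adjusted p = 7.62e-08). With another random draw of matched cells the Ifng interaction was 0.89 with an adjusted p of 0.94 in edgeR, so that call rests on the draw, and the Bcl2 interaction was 0.94 with an adjusted p of 0.00742. DESeq2 gave Bcl2 an adjusted p of 0.565, and edgeR 0.0548 without library 5 and 0.406 after thinning to 4000 UMIs. With all cells and no matching, or after thinning, neither gene passed. In simulated data with the same UMI totals the interaction test recovered 13% of genes changed 2-fold and 78% of those changed 4-fold among 6246 genes, with 4 false calls. The comparison of the 2 kinds of cell recovered 79% and 92% among 6226 genes, with 11 false calls. The simulation gave all genes 1 fixed dispersion and no differences between libraries, and changed only genes with many counts. Recovery in the real data was therefore not measured.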

How the data were processed

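Per the submitters' processing notes, the authors used Cell Ranger, Seurat and the mouse build mm10; for versions, filters on cells and doublets, the sources used here give nothing. The deposited table holds raw UMI counts for 15601 genes and 26698 cells, and the deposited metadata gives each cell's sex, cluster number and number of genes. The number after the barcode was taken as the library, and each library as 1 replicate. No doublets were removed here. In all, 84 barcodes occurred in more than 1 library.

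The members, lists and tests were chosen with earlier results of these data known, and the comparison on Pdcd1 alone after seeing the data. Cells of each kind were drawn in equal number within library and cluster (seed 1), their counts summed per library without Tcf7, Pdcd1 and Havcr2, filtered with filterByExpr, scaled by TMM and tested with edgeR 4.0.16 (R 4.3.3) by the robust quasi-likelihood test with the library as a block, or with no block for the sexes. P-values were adjusted by Benjamini-Hochberg over all genes, and called under 0.05. Within clusters, a sum needed at least 10 cells. The labels call the samples biological replicates, without saying which numbered replicate is which library. For kinds of cell, p-values measure how the difference within a library varied between libraries, for 1 draw of cells. For the sexes, they measure the spread between libraries. Named genes were the 15 called genes per direction with the largest fold, among those that averaged 5 CPM or more and had the same sign in all 6 libraries. Slamf6 and up to 5 genes per list by smallest p were named too. Between the sexes, up to 5 called genes per direction were named. These came only from genes that averaged 5 CPM or more and whose male and female libraries did not overlap. Further members of a list were named after their values were seen, to show genes that did not pass or went against their list. Alternatives used RLE scaling, DESeq2 1.42.0, limma 3.58.1 (voom), no filter, other draws, other cells and leaving out each library; another draw for the comparisons on 1 gene and the interaction, and the unmatched interaction, were chosen after seeing the data. The test was checked on simulated counts with 200 changed genes. Positions are from GENCODE M21. A gene that the rule would name is not reported here.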

Additional observations from a re-analysis of the deposited data

Results flagged for a closer look

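Of 60 groups of 6 libraries (30 named genes in 2 kinds of cell), 3 held a library far from the other five, and chance alone marks about 1 group in 20. Cxcl10 was at 136 CPM in the Tcf7+ Pdcd1+ Havcr2- cells of library 3 (male) against 32.7 to 59.2 CPM in the others. Myb was at 74.5 CPM in the same kind of cell of library 6 (female) against 23.2 to 40.7 CPM. Tnfrsf26 was at 2.74 CPM in the Tcf7- Havcr2+ cells of library 6 against 6.01 to 7.38 CPM.

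For 2 genes the difference between the kinds of cell differed between the sexes by the edgeR interaction test. The male minus female value was 0.90 for Bcl2 (adjusted p = 0.00226) and 1.52 for Ifng (adjusted p = 7.62e-08). The Ifng value did not pass with another draw of cells (0.89), without cluster 7 (1.34), after thinning (0.50) or without matching (0.57), with adjusted p from 0.921 to 0.969 in edgeR. The Bcl2 value did not pass in DESeq2 (0.90, adjusted p = 0.565), nor in edgeR without matching (0.98, adjusted p = 0.757), after thinning (0.91, adjusted p = 0.406) or without library 5 (0.89, adjusted p = 0.0548).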

How the results depend on the processing

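Counts of genes called kept within 1.5 times under every alternative run, except as follows. DESeq2 called 567 genes against Tcf7- Havcr2+ cells, 145 against cells that differ in Tcf7 alone, 165 against cells that differ in Havcr2 alone, 146 against cells that differ in Pdcd1 alone and 1 in the interaction. Thinning to 4000 UMIs, which tests fewer genes, left 508, 166 and 36 in the first 3 comparisons. All cells without matching on cluster gave 4028 against Tcf7- Havcr2+ cells, and 1 in the interaction. With no replicate block (the library left out of the model) 767 were called against Tcf7- Havcr2+ cells. Without the filter on low counts 30 were called between the sexes and 12 in the interaction, which had 1 with another draw and 6 without cluster 7. As libraries were left out in turn, the ranges were 175 to 255 for Tcf7 alone, 228 to 443 for Havcr2 alone, 8 to 24 between the sexes and 1 to 5 in the interaction. No paired analysis was possible because the libraries carry no replicate number of the labels that could pair males with females.

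Signs turned for a few genes against Tcf7- Havcr2+ cells, where the main values lay between -0.13 and 0.48. Xcl1 was at -0.55 without matching, -0.39 with another draw, -0.049 with stricter UMI limits, -0.32 without shared barcodes and -1.09 after thinning. Rel was at -0.29 without matching and -0.052 after thinning, Ctsw at 0.14 without matching, and Tox at -0.0032 without the filter and at -0.067 to 0.30 as libraries were left out. Against cells that differ in Pdcd1 alone, Gzmb was at -0.033 to 0.065 as libraries were left out. The causes were not tested. Of 87 genes named against Tcf7- Havcr2+ cells, 57 kept direction and call under every alternative that tested them. An alternative in which a gene was too low to test did not count against it. Where no adjusted p was given, direction alone was judged. Calls were lost for 9 in DESeq2 (Fosb, Pim2, Ahr, Hmgb2, Mcm6, Frat2, Junb, Batf and Rel), 11 with no replicate block (Nr4a3, Fos, Jun, Fosb, Isg20, Hmgb2, Mcm6, Junb, Batf, Rel and Ifit3), 7 with stricter UMI limits (Cxcl10, Tnfsf11, Ccl3, Ccl4, Batf, Rel and Jund), 11 after thinning (Ccl3, Ifng, Fos, Jun, Mcm6, Tgif1, Ezh2, Ccnd3, Batf, Il2rb and Il10ra), 4 without the cells of highest UMI counts (Fosb, Ahr, Batf and Rel), and 3 each without cluster 7 (Cxcl10, Gzmc and Rel), without matching (Isg20, Mcm6 and Ccnd3), with another draw (Cxcl10, Batf and Rel), with sums per library and cluster (Jun, Batf and Rel) and without cells of high mitochondrial share (Cxcl10, Ahr and Rel). Cxcl10 and Batf were lost without shared barcodes, Cxcl10 in limma and Junb without the filter. Of 418 alternative values of the medians of 21 lists, 33 moved by more than the spread between libraries. The share of cells kept a higher male mean in all alternatives. Depth limits the cell rule, since a missed UMI moves a cell to another kind.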

Other observations

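Further lists against Tcf7- Havcr2+ cells were mixed rather than one-sided. Over all genes tested in that comparison, 9.18% were called higher and 10% lower. Of 23 tested cytokine and chemokine receptors and ligands 11 rose and 5 fell (median 0.20, against a median near 0 over all genes and -0.16 after thinning to 4000 UMIs). Beyond the genes named above, Il4ra, a chain of the interleukin 4 receptor, averaged 51.4 CPM against 24.1 CPM, a log2 difference of 1.05 (SE 0.15), and Cxcr4, the receptor for CXCL12, 131 CPM against 68.1 CPM, a difference of 0.91 (SE 0.14). Il2rb, a chain shared by the receptors for interleukins 2 and 15, was lower (-0.54), as were Il18rap (-0.55) and Il10ra (-0.77). Of 9 tissue residency genes 2 rose, the integrin chain Itgb1 (0.75) and the aryl hydrocarbon receptor Ahr (0.84), while Rgs1 (-0.87), Cxcr6 and Prdm1 fell.

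Of 10 survival genes 4 fell and 1 rose. The BCL2 relatives Bcl2a1b (-0.64) and Bcl2a1d (-0.69) fell, though these are near-identical copies between which reads may be split, and the kinases Pim1 (-0.53) and Pim2 (0.60) went opposite ways. Of 8 tested genes that answer TGF-beta, Pmepa1 (0.95, SE 0.14) and Tgif1 (0.51) rose and Bhlhe40 (-0.40) fell. Of 9 WNT pathway genes Lef1 and Frat2 (0.83) rose and Ccnd3 (-0.39) fell. Ezh2, the enzyme that methylates histone H3 for Polycomb repression, rose (0.66, SE 0.13), the single one of 12 chromatin genes to pass. Of 30 oxidative phosphorylation genes 3 fell and 1 rose (median -0.09). The counts of chromatin and oxidative phosphorylation genes did not exceed the shares over all genes. Il2rb, Il10ra, Tgif1, Ezh2 and Ccnd3 did not pass after thinning, and Ahr, Pim2 and Frat2 did not pass in DESeq2.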
